A study of Caenorhabditis elegans with 4 samples.

Results

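Broad domains of MRG-1 binding were taken from a peak list made by chromatin immunoprecipitation and sequencing (ChIP-seq) in adult *Caenorhabditis elegans*. A domain was any nuclear peak of the list deposited for the whole series that was at least 5000 bases wide, and 534 of the 12440 nuclear peaks met this rule. The worms carried *fem-2(b245)*, an allele on chromosome III of a gene that promotes male fates, and were hermaphrodites kept at 20 °C. They were labelled as young adults containing a germ line, while the growth protocol describes gravid adults. Whole animals were ground, so cells of the germ line and of the body were measured together. The study held 2 ChIP samples, precipitated with a polyclonal antibody raised in rabbit, and 2 input samples of chromatin DNA. All 4 shared the genotype, stage and sex, and there was no sample of another genotype, so every result describes 1 strain. The members were chosen by their width in the series list. Widths and scores of that list are therefore descriptions, with no test.

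MRG-1 carries a chromodomain, and its relatives include MRG15 of mammals and Eaf3 of yeast. In yeast and mammals such chromodomains bind a methylated lysine of histone H3 that is laid down over the bodies of transcribed genes. In *C. elegans* MRG-1 is needed for germ cells to develop, and it has been described as lying mainly on autosomes. The centres of *C. elegans* autosomes are rich in conserved genes and genes used in the germ line, and recombine little. The arms hold more repeats and recombine more, and the X chromosome is largely kept silent in germ cells.

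The series list was read beside 1 peak list for each ChIP replicate. Replicate 1 held 3283 peaks and replicate 2 held 3184. The peak caller is written as MACS in the replicate lists and MACS v2 in the series list, so peak widths may not be on the same footing in both kinds of list. The lists give positions and a peak score but no reads, so the sequencing depth is unknown, and no input values were used here. Nothing in the labels ties the replicates to separate cultures, and their spread may be only technical. The series list may have been made from the same reads as the replicate lists, so agreement between them is not independent evidence. All positions are 1-based and in WormBase WS220, the build named in the headers. The gene table at hand is of another build, so no gene and no sequence is given for a domain.

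The domains were 4.29% of the nuclear series peaks and held 28.9% of the bases in those peaks, 3.99 Mb in all. Their median width was 6754 bases, and the middle 50% ran from 5740 to 8327 bases. Widths fell off without a break above the threshold. Of the domains, 356 reached 6 kb, 156 reached 8 kb, 65 reached 10 kb and 7 reached 15 kb. The narrowest domains lay on chromosome IV (238943 to 243947, 5005 bases), chromosome III (472012 to 477019, 5008 bases) and chromosome IV (11078736 to 11083755, 5020 bases). The widest peaks left out were of 4983, 4993 and 4997 bases on chromosomes II, V and II. The peaks just inside stood at score percentiles of 98.3, 89.2 and 84.9, and those just outside at 96.4, 91.9 and 90.5, so the threshold marked no visible step. The number of domains depended on how finely the list was cut. When series peaks at most 500 bases apart were joined, 953 reached 5 kb and held 62.0% of the bases, 2 of them on X, and 19.1% of them were covered to 90% by both replicates.

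The widest domain covered 24752 bases of chromosome II (7854824 to 7879575). It lay whole within 1 replicate 1 peak of 31.6 kb, at the 17.5th percentile of scores in that list, and 4 replicate 2 peaks covered 95.6% of it. The next was on chromosome I (9608154 to 9630742, 22589 bases), inside a replicate 1 peak of 24.9 kb and with 95.4% of its bases in 3 replicate 2 peaks. Chromosome III held the third (6370856 to 6389316, 18461 bases), which lay in a replicate 1 peak of 34.2 kb and was covered to 94.8% by replicate 2. These 3 domains were thus marked over nearly their whole length in both libraries, but the replicate 1 peaks that held them were not high in their own list. The latter 2 of those peaks stood at the 50.6th and 6.94th percentiles.

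The next 4 by width were not. A domain of 18098 bases on chromosome III (4907136 to 4925233) had no base in a replicate 1 peak and 75.3% in replicate 2 peaks. Its neighbour by rank, also on chromosome III (6425509 to 6442743, 17235 bases), had none in replicate 1 and 93.5% in replicate 2. On the same chromosome, a domain of 15051 bases (10737713 to 10752763) was met by neither replicate. The domain of 15013 bases on chromosome II (9042402 to 9057414) had none in replicate 1 and 56.6% in replicate 2. The last of the 10 widest were on chromosome V (9978414 to 9993332, 14919 bases), chromosome II (4695347 to 4709937, 14591 bases) and chromosome IV (11310639 to 11325180, 14542 bases). The first of these was covered whole by replicate 1 and to 98.1% by replicate 2, and the second whole by replicate 1 and to 95.7% by replicate 2. The domain on chromosome IV had none of its bases in replicate 1 and 50.5% in replicate 2. In this top 10, replicate 1 covered 5 domains whole and missed the other 5 entirely.

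Domains were found on all 5 autosomes and not on X. Chromosome III held 143 and had the highest density, 10.4 per Mb, or 7.72% of its span inside domains. Chromosome I held 123, or 8.16 per Mb. Chromosomes II and IV held 101 each, at 6.63 and 5.77 per Mb, and chromosome V held 66, at 3.15 per Mb. Median widths differed little between them, from 6619 bases on chromosome V to 6977 on chromosome I. The widest domain of chromosome IV, at 14542 bases, and that of V, at 14919, were narrower than those of the other autosomes.

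The order of the chromosomes was largely that of all peaks. On the autosomes, 4.47% of the series peaks were domains (95% Wilson interval 4.12 to 4.86%). The share was lowest on chromosome I, at 3.85% (3.24 to 4.57%), and highest on chromosome II, at 5.00% (4.13 to 6.04%), and these intervals overlapped. The intervals cover counting error only and treat neighbouring peaks as independent, which they are not. X had 498 series peaks and 0 domains, where 3 counts, the limit that a count of 0 allows, are 0.602% of its peaks and the Wilson interval ends at 0.765%. Its widest series peak, of 4786 bases, lay near the left end (109488 to 114273) at the 86.6th percentile of scores.

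Wide peaks were counted in the same way in each replicate list. In replicate 1, 1094 peaks reached 5 kb, at 17.6 per Mb on chromosome I, 17.8 on III, 13.5 on II, 12.2 on IV, 7.46 on V and 0.395 on X. In replicate 2, 516 did, at 8.49 per Mb on chromosome I, 8.85 on III, 7.02 on II, 5.26 on IV, 3.20 on V and 0 on X. Chromosomes I and III were thus the densest and V the least dense autosome in both replicates, as in the series list. Wide peaks on X were 7 of 190 in replicate 1 and 0 of 27 in replicate 2. The series list covered the 7 places of replicate 1 with between 1 and 6 peaks each, and with 9.32 to 83.9% of their bases, so none of them was a domain there.

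Position along the chromosome was not part of the rule. Domains were concentrated in the central 50% of each autosome, more than narrower series peaks were. On the autosomes 417 of the 534 domains, or 78.1% (74.4 to 81.4%), had their midpoint in the centre, against 51.1% (50.2 to 52.0%) of the 11408 narrower peaks. Per Mb there were 10.1 domains in the centres and 2.84 in the arms, a ratio of 3.56. For narrower peaks the values were 141 and 135 per Mb, a ratio of 1.04. The share in the centre rose with width class, from 47.3% of the peaks under 1000 bases to 62.7% of those of 1 to 5 kb. Of the 65 domains of at least 10 kb, 56 lay in the centre.

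Every autosome had this excess. The centre-to-arm ratio of domains per Mb was 4.94 on chromosome II, 4.08 on V, 3.61 on III, 3.56 on I and 2.48 on IV. The ratio for narrower peaks was 0.843, 1.10, 0.960, 1.20 and 1.11 on the same chromosomes. On chromosome II the contrast was the widest, with 84 domains in the centre, 3 in the left arm and 14 in the right arm, while more of its narrower peaks lay in the arms than in the centre. Chromosome III had 112 domains in the centre, 14 in the left arm and 17 in the right arm. On chromosome I the counts were 96, 10 and 17, on IV 72, 14 and 15, and on V 53, 8 and 5.

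The replicate lists gave the same direction. The centre-to-arm ratio of peaks of at least 5 kb was 2.10 in replicate 1 and 3.13 in replicate 2, and that of narrower peaks was 0.704 and 1.61. Wide peaks had the higher ratio on each autosome in each replicate. In replicate 1 the share of wide peaks in the centre ran from 63.9% on chromosome I to 74.4% on V, and in replicate 2 from 69.6% on IV to 80.6% on V. No test was made of these differences, which rest on 5 autosomes and on lists that may share reads.

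**Figure D1:**
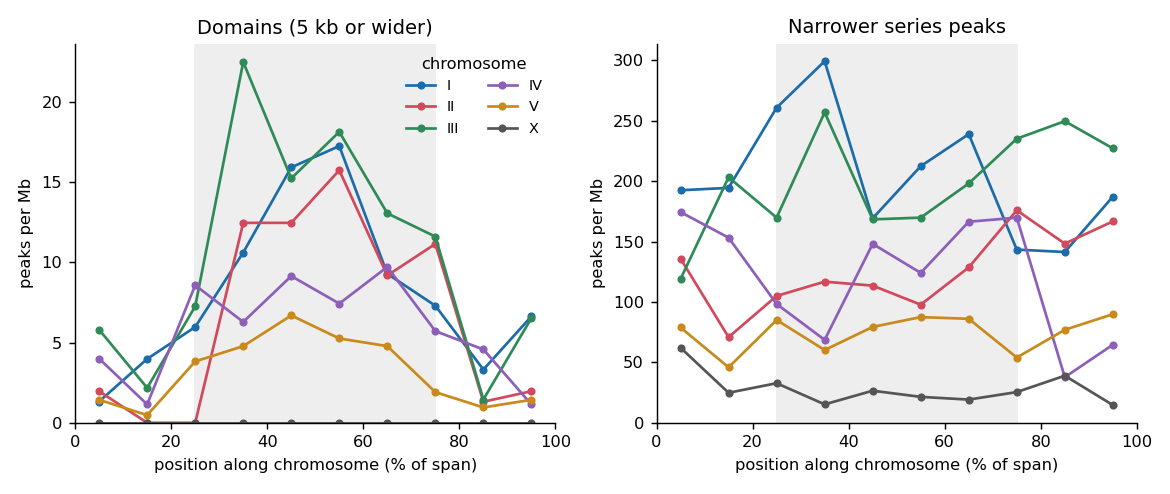
Peaks per Mb in steps of 10% of each chromosome's span (x axis, percent of span; grey band, the central 50%) for the 534 domains (left) and the 11906 narrower series peaks (right), 1 line per chromosome. Domains per Mb were highest within the centre on all 5 autosomes and 0 throughout X, while narrower peaks on the autosomes had a centre-to-arm ratio of 1.04 and on X were denser in the arms (33.8 per Mb) than in the centre (22.5).

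Domains in the arms were not weaker calls. Their median score percentile in the series list was 96.1, against 93.6 for domains in the centres, and their median widths were 6206 and 6955 bases. The longest stretches without a domain lay wholly or partly in arms. On chromosome II 3.37 Mb (1323055 to 4695346) held 321 narrower peaks, the widest of 4378 bases, and no domain. On chromosome V 2.96 Mb (17126536 to 20087849) held 226 narrower peaks, the widest of 4993 bases. The longest such stretch was 1.60 Mb on chromosome IV (15046849 to 16650287), 1.04 Mb on III (10873937 to 11912636) and 0.955 Mb on I (10937845 to 11892557). The densest 1-Mb window was that from 4000001 to 5000000 on chromosome III, with 22 domains. Chromosomes I and II had up to 18 and 19 in a window, IV up to 13 and V up to 9.

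Domains lay a median of 25.8 kb from the nearest other domain, edge to edge, with the middle 50% from 7.94 to 65.9 kb. The median was 18.7 kb on chromosome III, 21.3 kb on I, 22.0 kb on IV, 31.3 kb on II and 70.8 kb on V. It was 21.8 kb in the centres and 54.4 kb in the arms. Chromosome V thus had the most isolated domains, the farthest of them 1737 kb from any other.

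Within 10 kb of another domain lay 156 of the 534 domains, or 29.2% (25.5 to 33.2%), against 23.4% (22.6 to 24.2%) of the narrower peaks. In the autosome centres 31.4% of the domains (27.1 to 36.0%) and 34.2% of the narrower peaks (33.0 to 35.5%) lay that close to a domain, and these intervals overlapped. In the arms the shares were 21.4% (14.9 to 29.6%) and 14.1% (13.2 to 15.1%), and there the intervals overlapped only narrowly. Closeness is mutual, so a close pair of domains counts once for each of them. The intervals of the domains are therefore too narrow, and whether they overlap others is no test. The reading also depended on the distance. Within 20 kb the arm shares were 29.9% (22.4 to 38.7%) and 20.1% (19.1 to 21.2%), without overlap. The arm intervals were also apart at 500 bases, 1 kb and 50 kb, with the domains higher, but not at 5 kb. At 500 bases and at 1 kb the arm share rested on 12 of 117 domains. Those of the centres were apart at 500 bases and 50 kb, again with the domains higher. On chromosome V only 6 of 66 domains had another within 10 kb, and all 6 of these had it within 1 kb.

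Some neighbouring domains were separated only by a short gap. The smallest gap between neighbouring series peaks was 51 bases, and 63 domains, or 11.8%, had another domain within 500 bases, against 5.22% of the narrower peaks. In the centres the share was 12.2% of the domains (9.43 to 15.7%) and 11.6% of the peaks of 1 to 5 kb (10.2 to 13.2%). In the arms it was 10.3% of the domains (5.96 to 17.1%) and 2.53% of narrower peaks of all widths (2.15 to 2.97%). Here too a close pair counted for both of its domains, so the intervals of the domains are too narrow. In list order, the peak after a domain was itself a domain in 8.80% of cases. In the centres this share was 9.59% (7.12 to 12.8%), and a domain also followed 8.99% of the peaks of 1 to 5 kb there (7.74 to 10.4%). In the arms a domain followed 5.98% of the domains (2.93 to 11.8%) and 2.12% of the peaks of 1 to 5 kb (1.40 to 3.19%). By chromosome, the share after domains was highest on IV, at 15.8%, and lowest on V, at 4.55%.

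Joined at gaps of up to 10 kb, the domains made 378 single domains and 71 runs, of which 59 held 2 domains, 10 held 3 and 2 held 4. Of the 71 runs, 59 lay in the centres. A run of 4 on chromosome I (10622923 to 10656947) spanned 34.0 kb, 68.7% of it inside domains, with 5 narrower peaks between them. Its first 3 domains were whole within replicate 1 peaks and the fourth had no base in one, while replicate 2 covered 20.2 to 91.1% of each. The other run of 4, on chromosome III (5677285 to 5717352), spanned 40.1 kb with 64.8% inside domains. There replicate 1 covered the first domain whole and the other 3 not at all, and replicate 2 covered 85.4 to 99.7% of each. Among the 10 runs of 3, the shortest, on chromosome II (8017233 to 8039642, 22.4 kb), was met by both replicates in all its domains, with 80.3 to 98.6% of each in replicate 2. The longest, on chromosome III (6425509 to 6464282, 38.8 kb), had no base of its domains in replicate 1 and 76.1 to 93.5% of each in replicate 2.

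Domains ranked high in the series list by score, and 1 of them was among its 10 highest-scoring peaks. The score scale is not named in the files, so only ranks within the list were used. The median domain stood at the 94.2nd percentile (middle 50%, 90.5 to 97.3), and the lowest, on chromosome V (9777962 to 9784013), at the 68.2nd. Of the domains 417, or 78.1% (74.4 to 81.4%), were in the top 10% of the list, where 28.5% (26.9 to 30.2%) of the peaks of 1 to 5 kb and 0.254% of the shorter ones stood. Over all nuclear series peaks the share is 10% by construction. Score and width come from the same peak call and are not independent measures.

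Among the 10 highest-scoring series peaks 1 was a domain (10%, 1.79 to 40.4%) and 9 were of 1 to 5 kb. In the top 1% of the list 56 of 125 peaks, or 44.8% (36.4 to 53.5%), were domains, against 4.29% of the whole list. The share was 35.7% between the 96th and 99th percentiles, 30.3% between the 90th and 96th and 8.80% between the 80th and 90th. Below the 60th percentile there were none. Within the domains, width and score were only loosely related (Spearman rho 0.16 across 534 domains of 1 list, neighbours not independent), whereas rho was 0.53 across the 2841 peaks of 1 to 5 kb.

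**Figure D2:**
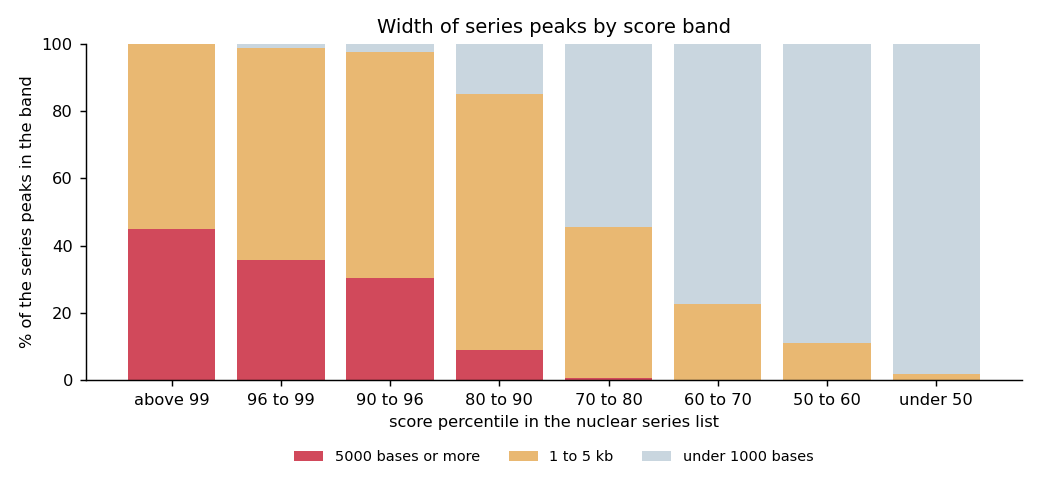
Share of series peaks in each width class (y axis, percent of the peaks in the band) by score percentile in the nuclear series list (x axis, highest scores at left). Domains made up 44.8% of the top 1%, and peaks of 1 to 5 kb were the larger class in each band above the 80th percentile.

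The 10 highest scores belonged to 11 domains, on chromosomes I, II, III and IV. The first was on chromosome IV (13091666 to 13101652, 9987 bases), ranked 10th of all nuclear peaks. It lay whole within a replicate 1 peak, and replicate 2 covered 99.8% of it. It was followed by chromosome IV (13776075 to 13783473), with 95.4% in replicate 2, chromosome IV (6321921 to 6327852), with 100%, and chromosome III (6195868 to 6209934, 14067 bases), with 96.3%. Then came chromosome IV (1052236 to 1057947), with 92.9%, and chromosome III (7854288 to 7863227), with 96.4%. The last were chromosome III (9458673 to 9469710), with 95.9%, chromosome I (2874161 to 2879925), with 100%, chromosome III (13639857 to 13645113), with 79.2%, and, at the same score, chromosome IV (5084141 to 5093072), with 99.7%, and chromosome II (6585884 to 6593350), with 84.3%. All 11 were covered whole by replicate 1, and 9 of them to over 90% by replicate 2.

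The replicate lists were then laid over the domains. The median share of a domain's bases inside replicate peaks was 100% in replicate 1 and 92.8% in replicate 2, or 96.4% ± 5.06 (SD, n = 2). Replicate 1 covered at least 90% of 475 domains, or 89.0% (86.0 to 91.3%), where 73% of all nuclear series peaks passed. Replicate 2 did so for 316 domains, or 59.2% (55.0 to 63.3%), where 20.8% of all nuclear series peaks passed. Both did for 286 domains, or 53.6% (49.3 to 57.7%), against 18.5% of all nuclear series peaks. Among narrower peaks 16.9% passed in both, with 40.1% of those of 1 to 5 kb and 9.69% of the shorter ones.

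The higher coverage went with the higher scores. Among peaks between the 90.5th and 97.3rd percentiles of score, replicate 2 covered at least 90% of 59.0% of the 266 domains (53.0 to 64.8%) and of 63.2% of the 560 peaks of 1 to 5 kb (59.1 to 67.1%). Both replicates did so for 52.3% of those domains (46.3 to 58.2%) and 60.5% of those narrower peaks (56.4 to 64.5%). Within this range of scores the share was not higher in domains than in narrower peaks. Domains in the arms, whose scores were higher, were covered to 90% by both in 66.7% of cases (57.7 to 74.6%), against 49.9% in the centres (45.1 to 54.7%). From the lowest to the highest of 4 score groups of domains, the share covered to 90% in both was 43.3%, 50.4%, 54.1% and 66.4%.

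The replicates covered the domains in different ways. In replicate 1 a domain was inside a peak or outside all of them. It covered 474 domains whole and 59 not at all, and the remaining domain, on chromosome II (8022891 to 8029081), to 99.6%. No domain was met by more than 1 replicate 1 peak. The peaks that held a whole domain had a median width of 11462 bases and reached beyond it by a median of 4060 bases in all. In replicate 2 only 96 domains, or 18.0%, lay whole within peaks, 428 were covered in part and 10 not at all. There 216 domains, or 40.4%, were met by 2 or more peaks, up to 5. This share rose with width, from 30.6% of the domains under 7 kb to 55.4% of those of at least 10 kb. Among the peaks of 1 to 5 kb it was 8.91%.

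**Figure D3:**
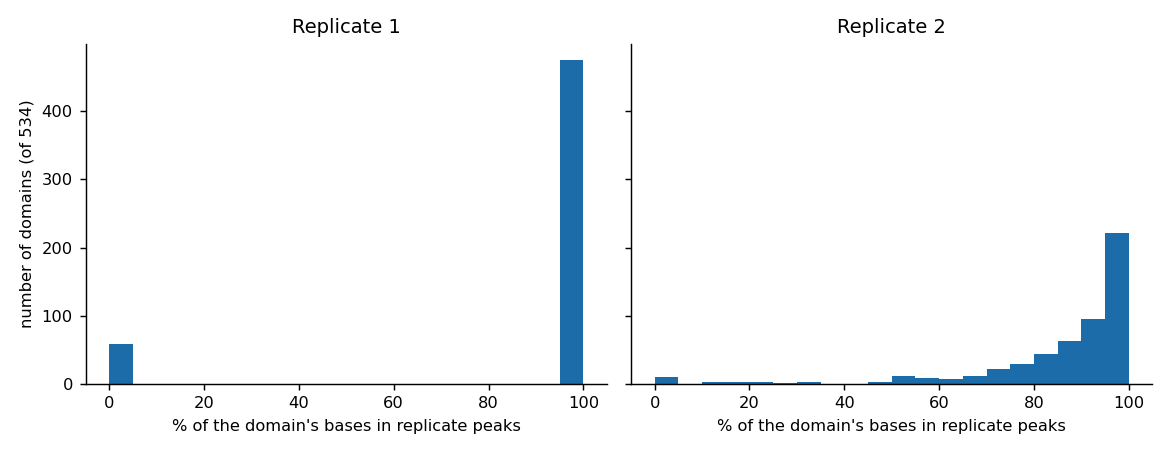
Number of domains (y axis, of 534) by the percent of their bases inside peaks of replicate 1 (left) and replicate 2 (right), in steps of 5%. Replicate 1 shows 59 domains at 0 and 475 near 100%, and replicate 2 a graded spread up to 100% with 10 domains at 0.

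Ranks in the replicate 1 list were limited by ties, since 19.7% of its peaks share a score of exactly 3100. Of the 475 domains met by replicate 1, 287, or 60.4%, had this score in the peak that covered most of them. In replicate 2 the score of 3100 was held by 3.64% of all peaks and stood at 98 of the 524 domains met, or 18.7%. The median percentile of the peaks at those 524 domains in their own list was 87.4. Of the 516 replicate 2 peaks of at least 5 kb, 374, or 72.5%, met a domain. Of the 1094 in replicate 1, 434, or 39.7%, did. The 660 that met none had a median width of 6663 bases, and the series list covered a median of 81.4% of their bases with a median of 4 narrower peaks, so much of the broad signal of replicate 1 stood in the series list as several peaks close together.

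The 59 domains without any replicate 1 peak scored somewhat lower than the other 475. Their median score percentile in the series list was 92.1, against 94.4, and from the lowest to the highest of the 4 score groups the share missed was 17.2% (11.7 to 24.4%), 12.0%, 9.77% and 5.22% (2.55 to 10.4%). Replicate 2 covered a median of 90.4% of their bases, against 93.2%, and at least 50% of the bases of 55 of them. It covered at least 90% of 50.8% of the missed domains and of 60.2% of the others. They were 11.0% of the domains (8.66 to 14.0%), where 25.6% of all nuclear series peaks had no base in replicate 1, mostly short ones. Among the peaks of 1 to 5 kb the share was 7.07% (6.19 to 8.08%), and among those within the domains' middle range of scores it was 3.75% (2.47 to 5.66%), against 10.9% (7.70 to 15.2%) of the domains in that range. The share was 23.1% (14.5 to 34.6%) in the 65 domains of at least 10 kb.

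Chromosome III held 29 of the 59, which was 20.3% of its domains (14.5 to 27.6%). Chromosome I held 15, or 12.2% (7.53 to 19.1%), II and IV 6 each, or 5.94% (2.75 to 12.4%), and V 3, or 4.55% (1.56 to 12.5%). In the centres 53 of 417 domains were missed and in the arms 6 of 117. Of the missed domains 64.4% had another domain within 10 kb, against 24.8% of the covered ones. Neighbouring domains were often missed together, as the 59 lay in 36 stretches without a replicate 1 peak. They are not 59 separate events, so the intervals of the missed shares, here and above, are too narrow. The contrast in closeness also did not allow for position, since 89.8% of the missed and 76.6% of the covered domains lay in centres.

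The missed domains fell into 36 stretches without a replicate 1 peak, 20 of which held 2 or 3 of them. The stretches were 22.4 to 125 kb long, with a median of 51.8 kb. They were densely marked in the other lists. Series peaks covered a median of 50.3% of them, and replicate 2 peaks 32.1%, with at least 6.31% in each. The 850 autosomal stretches without a replicate 1 peak or a domain that were at least 22.4 kb long had medians of 0.0616% and 0. These stretches were picked for holding a domain, and replicate 2 covered most of these domains, so the choice itself largely sets the difference in both lists.

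On chromosome III a stretch of 43.7 kb (6421062 to 6464718) held 3 domains, and series peaks covered 90.5% and replicate 2 peaks 79.8% of it. Another of 51.5 kb (9786188 to 9837702) held 3 as well, with 78.0% and 73.2%. The longest, 125 kb (3664749 to 3790191), held 2 domains, with 31.4% and 26.9%. The 36 stretches also held 120 series peaks of 1 to 5 kb, of the 199 such peaks that lay in any autosomal stretch free of replicate 1 peaks. The peak names of replicate 1 run from 1 to 3283 with 0 breaks in their numbering, as they also would if a filtered list had been numbered afresh. Whether wide or merged peaks were removed from this list is not stated in the sources used here, so a missed domain is a place without a listed peak. What set these stretches apart in replicate 1 was not tested.

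**Figure D4:**
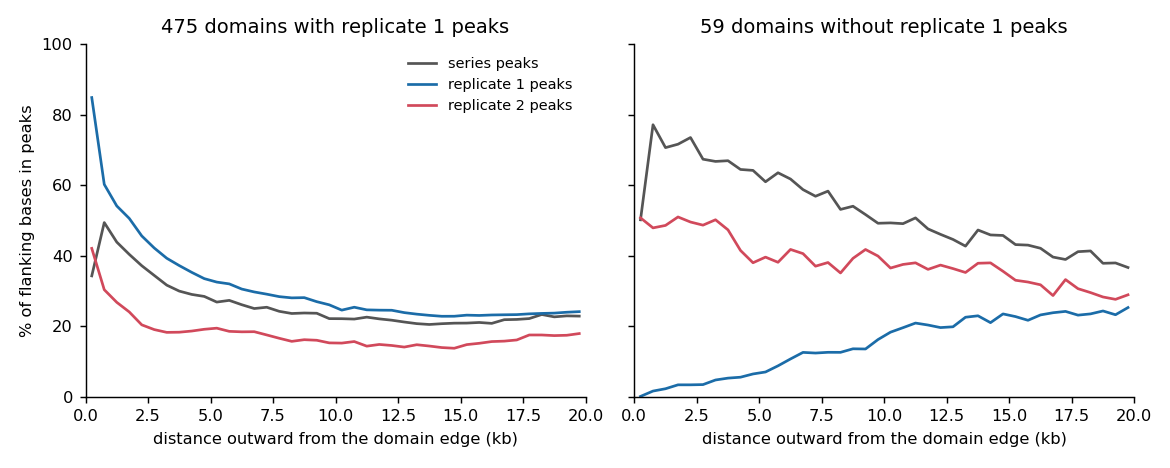
Percent of bases inside series, replicate 1 and replicate 2 peaks (y axis) by distance outward from both edges of a domain, in steps of 500 bases (x axis, kb), for the 475 domains with and the 59 without replicate 1 peaks. Around the 59, series and replicate 2 coverage was higher over the 20 kb on each side, while replicate 1 coverage began near 0 and rose with distance. The groups were split by replicate 1 peaks, which itself sets the replicate 1 coverage near the edges.

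Over the 20 kb on each side of a domain, other series peaks covered 29.0% of the bases, against 16.4% of the autosomes as a whole. In the centres the value was 30.4% around domains, 31.9% around peaks of 1 to 5 kb and 34.7% around shorter ones, where 21.5% of all bases were covered. The flanks of a narrower peak can hold a whole nearby domain, while a domain's own bases are not counted in its flanks. The values in the centres therefore cannot show whether domains had denser surroundings than narrower peaks. Around the 59 domains without replicate 1 peaks the series list covered 52.8% and replicate 2 38.4% of the flanks, and replicate 1 15.0%. Around the other 475 the values were 26.0%, 18.0% and 31.2%. The groups were split by replicate 1 peaks, so the difference in replicate 1 coverage was partly set by that choice.

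Replicate 2 missed 10 domains, or 1.87% (1.02 to 3.41%), where 65.3% of all nuclear series peaks had no base in it. They lay on chromosome I (4172567 to 4182396, 5569697 to 5583424 and 15060237 to 15071352), II (8460896 to 8470288), III (10737713 to 10752763), IV (7478075 to 7485325 and 11327212 to 11337160) and V (5772553 to 5780457, 9337768 to 9344326 and 17119946 to 17126535). Replicate 1 covered 7 of them whole. The other 3, on chromosomes III (10737713), IV (11327212) and V (9337768), had no base in a peak of either replicate, at score percentiles of 90.8, 85.5 and 88.9 in the series list. The 10 had a median width of 9612 bases and none was in the highest 5% of the list. These 10 were chosen for naming after their values were seen.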

How the data were processed

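MRG-1 ChIP-seq peak lists of 2 replicates and of the series were used. BWA and ce10 are the aligner and build in the submitters' processing notes. Peaks were called with MACS in the replicate lists and MACS v2 in the series list, per the deposited files. The sources used here give no cutoff, control library or pooling. The deposited score of each peak, made by the authors' peak caller, has no named scale and was used for ranks within a list and for 1 minimum in the replicate lists.

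Here, overlaps and shares were computed in Python 3.11.15 (pandas 2.3.3, numpy 2.4.6, statsmodels 0.14.6, scipy 1.17.1), and plots with matplotlib 3.10.9. The members, thresholds and rule for named regions (the 10 widest and 10 highest-scoring domains, the widest of each chromosome, the 3 runs with the most domains, ties going to the shorter, the 3 peaks on each side of the threshold, and domains missed by both replicates) were chosen with earlier results of these data known. The 10 domains missed by replicate 2, the longest run of 3 and the stretches free of replicate 1 peaks were added after their values were seen. A chromosome's span is its last peak end in any list. Percentiles are shares of the nuclear series peaks scoring at or below a peak. Shares have 95% Wilson intervals. All 10 measures checked on simulated lists of 300 domains were recovered. Mitochondrial peaks were left out.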

Additional observations from a re-analysis of the deposited data

Results flagged for a closer look

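The series list also held 7 peaks on mitochondrial DNA, a sequence outside the nuclear comparisons. Neither replicate list had any (0 and 0). The widest was 350 bases, so none was a domain.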

How the results depend on the processing

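The alternatives were planned, except those for the share of domains without replicate 1 peaks, which were added after seeing the data. Of 68 values, 37 stayed within their interval, the spread between replicates or 1.5 times the count, and 31 did not. Some of the 37 could not have moved. All 534 domains scored above the 50th percentile, so the better-scoring 50% of the list kept the same domains. Its count, its shares on X, in the centres and within 10 kb, and its replicate coverage were therefore fixed. Mean median coverage could not move when either replicate was left out. That shift is always smaller than the SD of the 2 replicate medians, the limit used. The share of domains on X, 0, stayed within its interval in all 7 alternatives, at up to 0.640% with the replicate 1 list. Thresholds above 5 kb and the better-scoring 50% could only give 0 there. With a threshold of 10 kb there were 65 domains with 5.93% of the bases, 86.2% of them in the centres, 0% within 10 kb of another, a median score percentile of 96.3, and 23.1% without replicate 1 peaks. Joining series peaks at most 500 bases apart gave 953 domains with 62.0% of the bases, 69.5% in the centres, 34.3% within 10 kb of another, a score percentile of 87.0, a mean median coverage of 86.8%, 19.1% covered to 90% by both and 5.98% without replicate 1 peaks. The replicate 1 list in place of the series gave 1094 peaks of 5 kb or more with 66.6% of the bases, 67.7% in the centres and 37.3% within 10 kb, and the replicate 2 list 24.0% within 10 kb. A centre of 40% of the span held 66.1% of the domains and 41.3% of the narrower peaks. Closeness moved in 8 of its 9 alternatives, with 37.8% at a threshold of 4 kb, 22.2% at 6 kb, 43.3% within 20 kb and 21.9% within 5 kb. The latter 2 change the distance itself, so the share could only rise or stay at 20 kb and fall or stay at 5 kb. A width threshold also changes how many domains there are to be near. The better-scoring 50% of the list gave a score percentile of 88.5. This move was fixed as well, because the same domains were ranked in a shorter list. Counting only the best single replicate peak gave a mean median coverage of 90.8% (92.8 to 100% with either replicate left out and all peaks counted) and 36.1% covered to 90% by both. The latter was 48.1% with replicate scores of at least 100 and 85.4% at 50% of bases. With 1 replicate left out, it became the share covered to 90% by the other alone. That share was 59.2% without replicate 1 and 89.0% without replicate 2, and it could not fall below the share for both. No paired analysis was possible because the input samples enter here with no values and no test was run. Genes per domain were not counted, for want of an annotation in the files' build. A missing replicate peak is a place without a call, at unknown depth.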
